A study of Mus musculus with 8 samples.

Results

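Signals that pass through hepatocyte growth factor and its receptor, or through the epidermal growth factor (EGF) receptor family, were followed in livers lacking Usp39 in hepatocytes. The genes were 10 of the 55385 gene identifiers in the deposited table, picked by symbol: *Hgf*, *Hgfac*, *Met*, *Egfr*, *Erbb2*, *Erbb3*, *Areg*, *Hbegf*, *Tgfa* and *Errfi1*. RNA-seq was done on whole livers of 4 *Usp39*-HKO and 4 control male mice, all 5 weeks of age and all starved for 16 h before the tissue was taken. *Usp39*-HKO mice carry *Usp39* alleles with exon 2 flanked by loxP sites (*Usp39* fl/fl) and an albumin-Cre transgene, on a C57BL/6J background. The study calls the deletion hepatocyte-specific, and its extent in other liver cell types is not given in the sources used here. The labels call the controls WT while the study speaks of control littermates, and whether these carried loxP-flanked alleles is not given in the sources used here. Each mouse gave 1 library, and mice are called here by their deposited names, A468, A472, A473 and A475 for controls and A469, A470, A471 and A474 for *Usp39*-HKO.

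Hepatocyte growth factor (HGF) is made in the liver mainly by non-parenchymal cells, is secreted as an inactive precursor, and is cut by serine proteases before it can act on the MET receptor of hepatocytes. The EGF receptor and its relatives ErbB2 and ErbB3 are tyrosine kinase receptors that act in pairs, and their ligands are membrane-anchored precursors that are released by shedding. Both receptor systems feed the RAS-MAPK and PI3K-AKT cascades and are known as main drivers of hepatocyte proliferation after partial hepatectomy.

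Totals were between 8589636 and 10418450 counts per mouse, and a count of 3 was worth between 0.288 and 0.349 CPM (counts scaled to the library's total). Counting intervals and floors cover counting error only, and pairs of mice of 1 genotype differed by far more than that (6.22 to 37.9 on a scale where counting error alone gives values near 1). *Usp39* itself stood at 9.35, 10.4, 8.76 and 9.78 FPKM (counts scaled to exon length and to the library's total) in controls and at 8.37, 8.63, 8.70 and 8.07 in *Usp39*-HKO livers, a log2 fold change of -0.41 (SE 0.11, edgeR adjusted p 0.0212). Every knockout liver lay below every control liver, but the drop was small, and these counts cover all exons while only exon 2 is deleted. The 8 hepatocyte markers were all present, with sums of 15511 to 17404 FPKM (controls) and 13739 to 18956 FPKM (*Usp39*-HKO). Control A475 stood apart in 10 pancreas acinar markers, which summed to 639 FPKM against 2.92 to 5.03 in the other 7 livers. *Usp39*-HKO liver A474 had the highest sums of stellate cell, macrophage and cholangiocyte markers, and calls among the 10 genes that were lost without A475 or A474 are named below. The labels name no sequencing run or batch, so none was examined. In whole tissue, a change in the number of cells of a type and a change in RNA per cell cannot be told apart.

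Levels are the deposited FPKM, which allow comparison between genes. Changes are log2 fold changes of *Usp39*-HKO over control from edgeR's quasi-likelihood test on counts with TMM factors, and adjusted p-values are Benjamini-Hochberg values over the 14340 genes with at least 0.5 FPKM in at least 4 of 8 livers. TMM factors were 0.912 to 0.94 in controls against 1.01 to 1.19 in *Usp39*-HKO livers. They put the median log2 fold change of all genes at -0.0015, against 0.23 without them, so a gene can lie nearer to the controls in FPKM than in the fit.

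Promoter sequences are shown first for the amphiregulin gene *Areg*, whose libraries did not overlap between genotypes, and for *Errfi1*, the most abundant of the 10 genes, because they were the only ones of the 8 genes found in the promoter table to hold the cyclic AMP response element. The RefSeq promoters (GRCm38.p6) were searched on both strands over 250 bases before each start for 5 motifs, none of which contains another. The cyclic AMP response element is TGACGTCA and the AP-1 motif is TGAGTCA on either strand. The other motifs are the TATA box, read as TATAAA, the CCAAT box, read as that name, and the GC box, read as GGGCGG. *Erbb3* and *Hbegf* are not in that table. The windows below run 5′ to 3′ on the plus strand, chr5:91139518-91139593 for *Areg* and chr4:150854999-150855067 for *Errfi1*, with TGACGTCA and TATAAA in capitals.

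Areg: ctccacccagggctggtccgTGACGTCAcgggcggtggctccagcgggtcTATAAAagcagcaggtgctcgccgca

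Errfi1: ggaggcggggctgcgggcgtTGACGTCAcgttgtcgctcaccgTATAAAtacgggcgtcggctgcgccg

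In *Areg* the element began 61 bases and TATAAA 31 bases before the start. In *Errfi1* these were 51 and 28 bases, counted from the downstream RefSeq start, which lies in the first intron of the longer GENCODE transcript. TGACGTCA was held by 508 of 32851 promoters (1.55%) and TATAAA by 12.4%. The AP-1 letters were held by 4.46% of promoters and, of the 8 genes, by *Met*. The CCAAT box was found in *Erbb2* and *Errfi1* (33.8% of promoters), and the GC box in *Areg*, *Egfr*, *Errfi1*, *Met* and *Tgfa* (32.7%). A match describes letters and not a bound site, and of these genes *Areg* was higher in every *Usp39*-HKO liver than in any control, while the genotypes overlapped in *Errfi1*.

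Among the 9 genes that could be tested, *Hgf* and *Hbegf* rose in *Usp39*-HKO livers and *Hgfac*, *Met*, *Egfr* and *Erbb3* fell. *Erbb2*, *Tgfa* and *Errfi1* did not pass an adjusted p of 0.05, and *Areg* did not reach the expression filter. The 6 genes called stand against 22.5% of all genes tested, with 10.9% called higher and 11.6% called lower. FPKM did not overlap between genotypes in 4 of the 9 genes (*Hgf*, *Erbb2* and *Hbegf* higher and *Egfr* lower), against 28.7% of all genes tested, 23.9% higher and 4.81% lower. With TMM scaling it was 6, *Met* and *Erbb3* joining the lower ones, against 24.8% of all genes (11.9% higher, 12.9% lower). With the rule the study used (p below 0.05 before adjustment and a change beyond 0.5 on the log2 scale), *Erbb2* would be added, giving 3 genes higher (12.1% of all genes tested) and 4 lower (9.62%), 7 in all against 21.7%. Fewer calls were left without control A473 (2 genes, *Hgf* and *Met*), without *Usp39*-HKO A474 (3 genes, *Hgf*, *Met* and *Egfr*), without control A468 (4 genes) and without control A475 (4 genes).

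**Figure D1:**
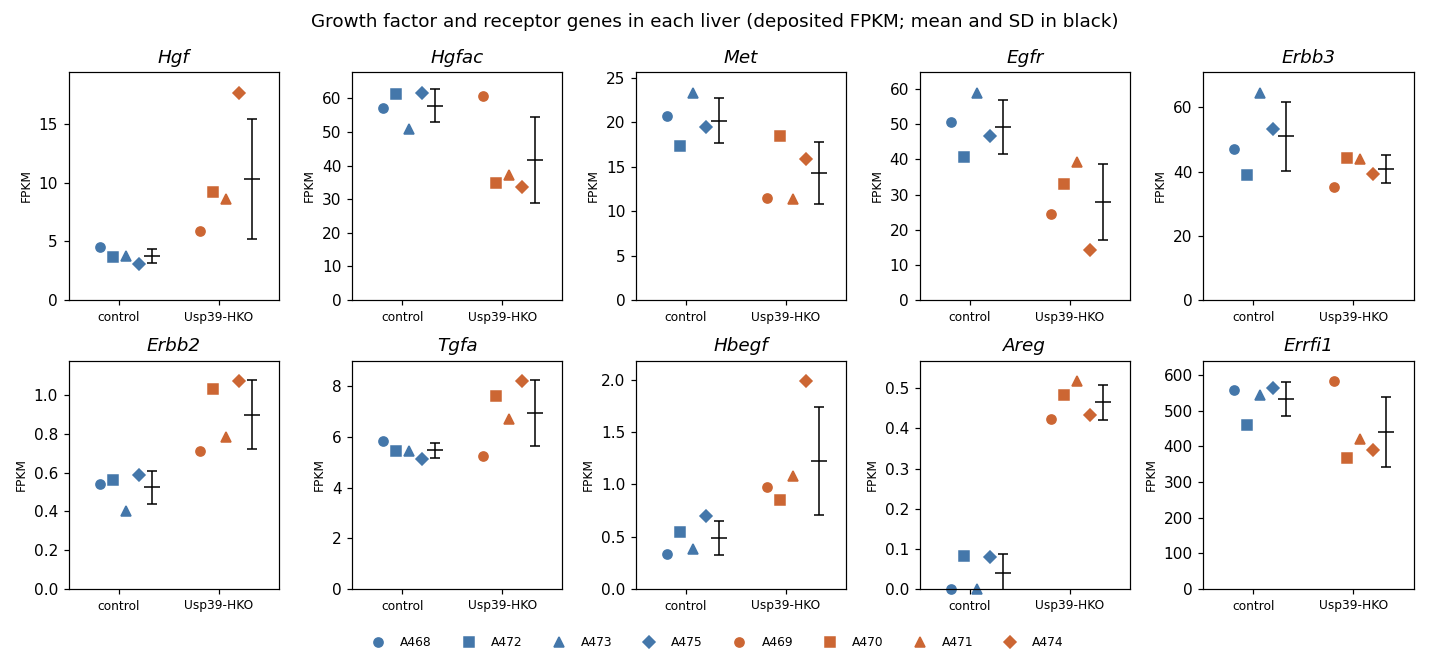
FPKM of the 10 genes in each of the 8 livers, 1 panel per gene, with controls in blue and *Usp39*-HKO in orange. Points are single mice and black bars are the mean and SD of 4. *Hgf* spans 3.05 to 4.52 FPKM in controls against 5.86 to 17.7 in *Usp39*-HKO livers, and *Egfr* spans 40.7 to 59.0 and 14.3 to 39.3.

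The most abundant of the 10 mRNAs in control livers was *Errfi1* (532 ± 48.0 FPKM, SD, n = 4), above 99.4% of all genes tested. *Hgfac*, *Erbb3* and *Egfr* followed at 57.8 ± 4.99, 50.9 ± 10.8 and 49.3 ± 7.68 FPKM, with ranges that overlapped one another, and then *Met* at 20.2 ± 2.52. *Tgfa* at 5.47 ± 0.283 and *Hgf* at 3.75 ± 0.604 lay near the median gene tested, 3.97 FPKM. *Erbb2* (0.524 ± 0.083) and *Hbegf* (0.490 ± 0.162) were close to the filter and overlapped each other, and *Areg* was under it. The order of *Hgf* and *Tgfa* turned around between genotypes. *Hgf* was below *Tgfa* in 4 of 4 controls and above it in 4 of 4 *Usp39*-HKO livers.

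*Hgf* encodes the ligand of MET. Its level in controls A468, A472, A473 and A475 was 4.52, 3.65, 3.77 and 3.05 FPKM, and in *Usp39*-HKO livers A469, A470, A471 and A474 it was 5.86, 9.23, 8.60 and 17.7. All knockout livers were above all controls, A474 was far above the others, and A469 was nearest to the controls. *Hgf* rose with a log2 fold change of 1.20 (SE 0.25, 95% interval 0.65 to 1.74, edgeR adjusted p 0.00672), a 2.30-fold difference. The call held in all 15 alternative fits, with a log2 fold change of 0.88 and an adjusted p of 0.00905 without A474. In the transcript annotation, 6.74% of the exon bases of *Hgf* are shared with *Gm43489* on the same strand, which had 1 to 9 counts per liver.

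Stellate cell and fibroblast markers rose beside *Hgf*, while endothelial markers, also of non-parenchymal cells, did not. Of 12 stellate cell and fibroblast markers, all tested, 8 rose and none fell, where 10.9% of all genes were called higher and 11.6% lower (*Lum*, a matrix proteoglycan, 2.42 and *Col1a1*, a collagen chain, 1.70 on the log2 scale, chosen here after their values were seen). Their summed FPKM was 167.8 to 187.9 in controls and 251, 324, 289 and 369 in A469, A470, A471 and A474. That is the order of *Hgf* among the knockout livers, though not among the controls. Macrophage and Kupffer cell markers rose in 7 of 8 (294 to 381 against 537 to 810 FPKM) and cholangiocyte markers in 6 of 7 tested (27.4 to 30.0 against 66.2 to 294). *Cx3cr1* in the first list and *Cldn4* in the second passed the filter through knockout livers alone, so without them the counts were 6 of 7 and 5 of 6. The cholangiocyte sum was mostly 1 gene, *Spp1*, at 23.2 to 25.0 FPKM in controls and 59.8 to 263 in *Usp39*-HKO livers. Of 8 endothelial markers 2 fell, *Stab2* and *Lyve1*, and none rose (127.9 to 139.1 against 136.9 to 148.9), and of 8 hepatocyte markers 2 fell, *Apoh* and *Cps1*. All these sums are FPKM as deposited, without TMM scaling. The endothelial median log2 fold change was -0.05 with TMM factors and 0.18 without, so the direction of that list depends on the scaling. The hepatocyte median was -0.33 with TMM factors, where single markers lay between -0.65 and -0.14, and -0.11 without. No defining marker of these types was at 0 in all livers, and the part of cell composition in any of the changes given here was not tested.

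**Figure D2:**
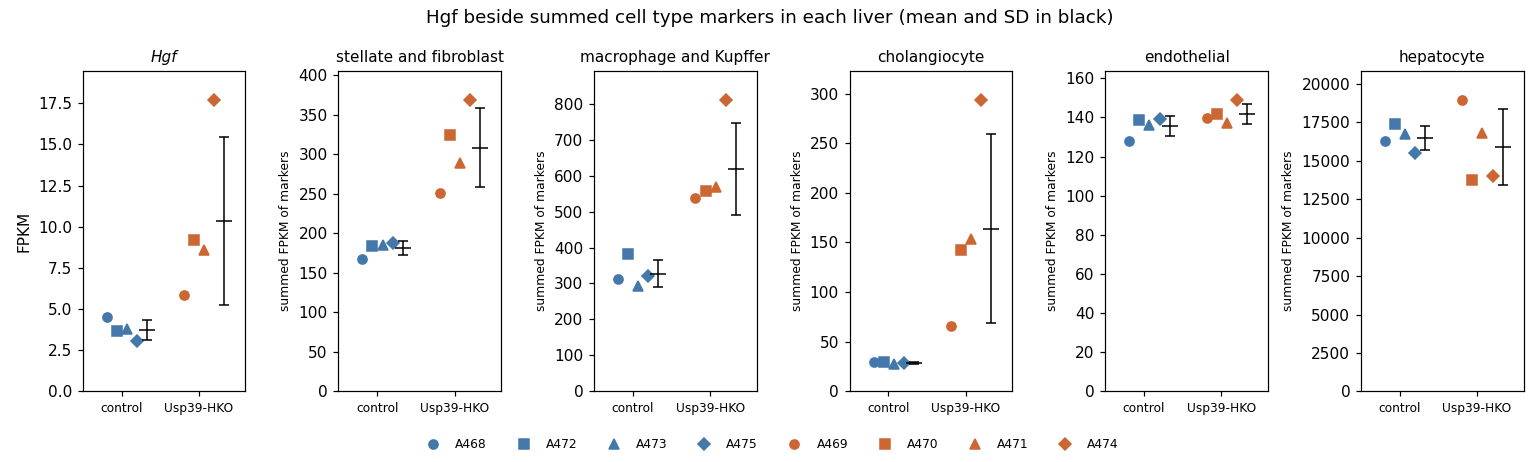
*Hgf* FPKM and the summed FPKM of 5 marker lists in each liver, with controls in blue, *Usp39*-HKO in orange, and the mean and SD of 4 mice in black. Sums are FPKM as deposited, without TMM scaling, and the cholangiocyte sum is mostly *Spp1*. Stellate cell and fibroblast markers sum to 251 to 369 FPKM in *Usp39*-HKO livers against 167.8 to 187.9 in controls, while endothelial and hepatocyte sums overlap on this scale.

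*Hgfac* encodes the HGF activator, a serine protease that hepatocytes release into plasma and that cuts the HGF precursor. It measured 57.2, 61.4, 51.0 and 61.7 FPKM in controls and 60.6, 34.7, 37.2 and 33.7 in *Usp39*-HKO livers. Liver A469 sat among the controls and the other 3 knockout livers below all of them, so the genotypes overlapped. *Hgfac* fell with a log2 fold change of -0.69 (SE 0.20, 95% interval -1.13 to -0.25, edgeR adjusted p 0.0309). This call rested on the exact choice of mice and tool. Without A469 the log2 fold change was -0.95 with an adjusted p of 0.000402, and without any one of the other 7 mice the adjusted p was between 0.0532 and 0.0847.

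*Met* encodes the HGF receptor. Controls had 20.7, 17.3, 23.3 and 19.5 FPKM and *Usp39*-HKO livers 11.5, 18.4, 11.4 and 15.9. Liver A470 was above the lowest control, A472, and the other knockout livers were below all controls. After TMM scaling all 4 were below. *Met* fell with a log2 fold change of -0.74 (SE 0.15, 95% interval -1.08 to -0.40, edgeR adjusted p 0.00688), and all 8 fits that left out a mouse kept the call. It was lost with limma on log2(FPKM + 1) (adjusted p 0.0530) and on log2(FPKM + 0.1) (adjusted p 0.0545). In edgeR without TMM factors it was kept (adjusted p 0.0395). *Hgf* and *Met* thus moved apart, and in FPKM there were 4.58 to 6.39 *Met* for each *Hgf* in controls and 0.899 to 1.996 in *Usp39*-HKO livers. For *Hgfac* the ratio to *Hgf* was 12.7 to 20.3 and 1.91 to 10.4. These ratios describe bulk mRNA and were not tested.

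Among the EGF receptor family, *Egfr* and *Erbb3* carried nearly all of the mRNA. *Egfr*, the receptor for EGF, TGF-alpha, amphiregulin and HB-EGF, was at 50.8, 40.7, 59.0 and 46.8 FPKM in controls and at 24.4, 33.2, 39.3 and 14.3 in *Usp39*-HKO livers. No knockout liver reached the lowest control, although A471 lay close to it, and A474 was lowest. *Egfr* fell with a log2 fold change of -1.05 (SE 0.27, 95% interval -1.65 to -0.45, edgeR adjusted p 0.0191). The fold change was -0.80 without A474 (adjusted p 0.0143), and without control A473, the highest control, it was -0.94 and the adjusted p 0.0602.

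*Erbb3* encodes a receptor with an impaired kinase that binds neuregulins and signals through its partners. It stood at 47.0, 38.9, 64.6 and 53.3 FPKM in controls and at 35.0, 44.3, 44.0 and 39.3 in *Usp39*-HKO livers. Control A472 lay inside the knockout range, and A473 was the highest of all livers. *Erbb3* fell with a log2 fold change of -0.56 (SE 0.16, 95% interval -0.90 to -0.22, edgeR adjusted p 0.0249), but only 7 of 15 alternatives kept the call. Without TMM factors the fold change was -0.32 (adjusted p 0.129), without *Usp39*-HKO A474 it was -0.50 (adjusted p 0.0736), without control A475 it was -0.55 (adjusted p 0.0648), and without control A473 it was -0.42 (adjusted p 0.0814).

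*Erbb2* encodes the family member with no ligand of its own and the preferred partner of the others. *Erbb4*, which is not among the 10 genes, averaged 0.109 FPKM in controls. Of the receptors among the 10, *Erbb2* was the rarest, with 18 to 32 counts per control liver. Its level was 0.544, 0.562, 0.402 and 0.590 FPKM in controls and 0.711, 1.04, 0.785 and 1.07 in *Usp39*-HKO livers. Both groups were narrow and did not overlap. The log2 fold change was 0.53 (SE 0.21, 95% interval 0.07 to 0.99), which did not pass the test (edgeR adjusted p 0.0913). Without TMM factors it was 0.77 with an adjusted p of 0.0271.

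Summed over the 3 receptors, controls had 80.1 to 124.0 FPKM and *Usp39*-HKO livers 54.7 to 84.1, with the lowest control, A472, inside the knockout range. After TMM scaling they were 86.8 to 135.9 and 46.2 to 79.0, which did not overlap. *Egfr* made up 46.5% to 51.6% of that sum in controls against 26.2% to 46.7% in *Usp39*-HKO livers, where A474 was lowest. The *Erbb2* share was 0.324% to 0.701% and 0.933% to 1.96%. The *Egfr* to *Erbb3* ratio was 0.878 to 1.08 in controls and 0.364 to 0.892 in knockout livers, and these ranges overlapped through A471.

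**Figure D3:**
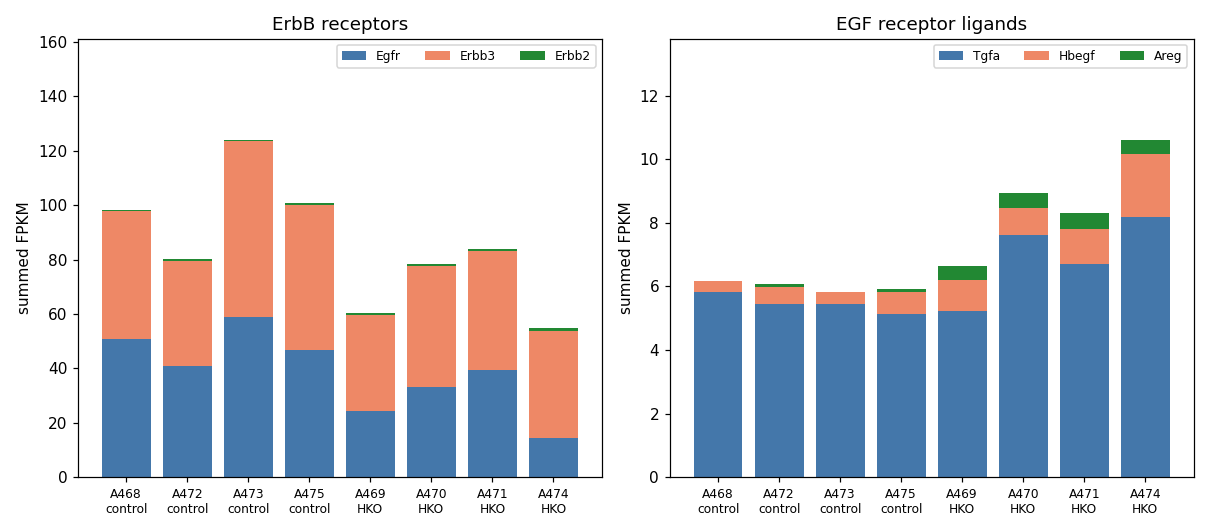
Stacked FPKM in each liver, controls first. The left panel holds the ErbB receptors *Egfr*, *Erbb3* and *Erbb2*. The right panel holds the EGF receptor ligands among the 10 genes, *Tgfa*, *Hbegf* and *Areg*. In FPKM as deposited, without TMM scaling, receptor sums are 80.1 to 124.0 in controls against 54.7 to 84.1 in *Usp39*-HKO livers, and ligand sums are 5.84 to 6.16 and 6.63 to 10.6.

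The EGF receptor ligands were each less abundant than *Egfr* and *Erbb3*, though *Tgfa* was above *Erbb2*. *Hbegf* encodes heparin-binding EGF-like growth factor, which binds EGFR and ErbB4. It was at 0.338, 0.543, 0.385 and 0.695 FPKM in controls (15, 26, 16 and 35 counts) and at 0.979, 0.852, 1.08 and 1.99 in *Usp39*-HKO livers (46, 42, 50 and 91 counts). The groups did not overlap, and A474 again stood above the rest. *Hbegf* rose with a log2 fold change of 1.05 (SE 0.30, 95% interval 0.40 to 1.71, edgeR adjusted p 0.0262), and 2 controls were under the expression filter. The log2 fold change was 0.79 without A474 (adjusted p 0.0782), 0.92 without control A468 (0.0745) and 0.96 without control A473 (0.0790).

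*Areg* encodes amphiregulin, a lower-affinity EGFR ligand. It had 0, 1, 0 and 1 counts in controls and 5, 6, 6 and 5 in *Usp39*-HKO livers, which is 0, 0.0830, 0 and 0.0790 FPKM against 0.423, 0.484, 0.518 and 0.434. No control reached 2 counts and no knockout liver was under 5. A count of 0 allows up to 0.269 FPKM in A468 and 0.287 in A473, under the lowest knockout value as measured. No bound was set for the controls with 1 count or for the knockout counts of 5 and 6. Whether single livers differ beyond counting error was therefore not tested. Over each group the counts were 2 and 22, a CPM ratio of 10.8 (exact 95% interval for counting error 2.65 to 94.4). An exact two-sided permutation test over the 70 assignments of mice to genotypes gave p = 0.029 for the FPKM, the smallest that 4 against 4 allows. Since 7 livers were under 0.5 FPKM, *Areg* was in the edgeR fit only when no filter was applied, where its log2 fold change was 2.92 (SE 0.83, adjusted p 0.0151).

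*Tgfa* encodes transforming growth factor alpha, which hepatocytes themselves make, and was the main ligand mRNA of the 3. Controls had 5.82, 5.46, 5.45 and 5.13 FPKM and *Usp39*-HKO livers 5.23, 7.62, 6.72 and 8.19. The controls were tightly grouped, A469 was among them, and the other knockout livers were above. The log2 fold change was 0.10 (SE 0.12, 95% interval -0.15 to 0.35), not past the test (edgeR adjusted p 0.58). Ligand mRNA of *Tgfa*, *Hbegf* and *Areg* together was 5.84 to 6.16 FPKM in controls against 6.63 to 10.6 in *Usp39*-HKO livers. After TMM scaling the sums were 6.28 to 6.75 and 6.55 to 8.95, and the groups overlapped through A469. *Tgfa* made up 86.9% to 94.5% of the sum as deposited in controls against 77.2% to 85.1% in *Usp39*-HKO livers. The sums and shares leave out the ErbB ligand gene *Btc*, at 0.692 to 1.15 FPKM in controls and 1.64 to 3.43 in *Usp39*-HKO livers.

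*Errfi1* encodes MIG6, a cytoplasmic feedback inhibitor of the ErbB kinases. It was at 559, 461, 545 and 563 FPKM in controls and at 582, 369, 419 and 390 in *Usp39*-HKO livers. A469 was the highest of all 8 livers and the other 3 knockout livers were the lowest, the same split as for *Hgfac*. The log2 fold change was -0.49 (SE 0.18, 95% interval -0.90 to -0.09, edgeR adjusted p 0.0753), which did not pass the test. DESeq2 gave an adjusted p of 0.0265, and without A469 the log2 fold change was -0.67 (edgeR adjusted p 0.00477). Set against *Egfr*, there were 9.23 to 12.02 *Errfi1* FPKM for each *Egfr* FPKM in controls and 10.7 to 27.2 in *Usp39*-HKO livers.

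**Figure D4:**
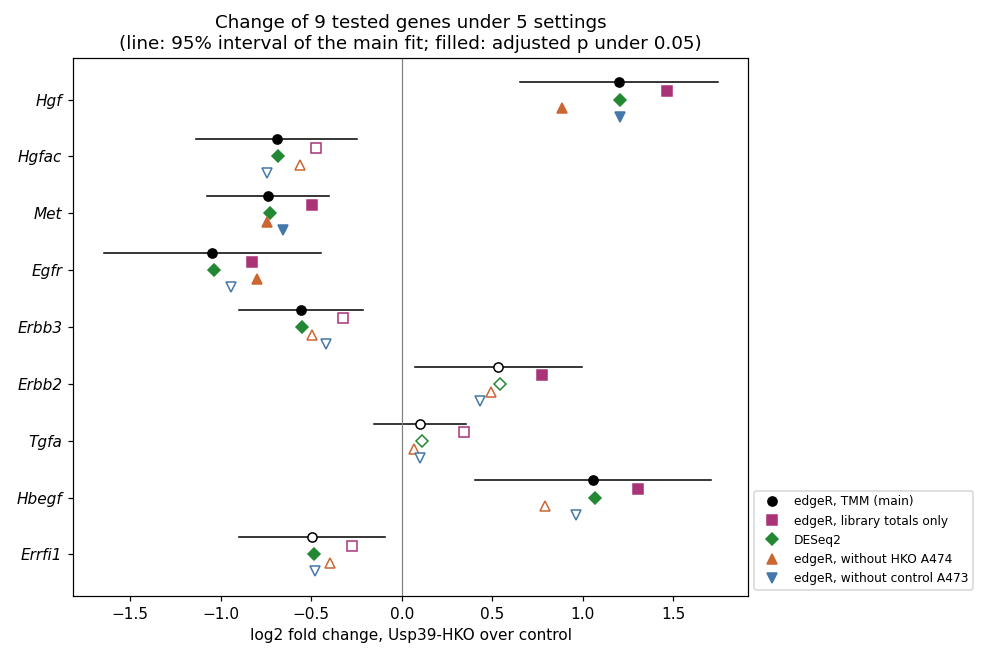
Log2 fold change (*Usp39*-HKO over control) of the 9 tested genes in 5 fits, with the 95% interval of the edgeR fit with TMM as a line and filled symbols for an adjusted p under 0.05. Directions are shared by all 5 fits, while *Hgfac*, *Egfr*, *Erbb3* and *Hbegf* lose the threshold in 1 or more of them and *Erbb2* passes it only without TMM and *Errfi1* only with DESeq2.

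The genes around these ligands and receptors were read from 7 lists, of 79 genes with 65 tested. Of these, 11 rose and 7 fell, 27.7% of those tested against 22.5% of all genes. Of the 11 other ligands and receptors, 4 were tested, 2 rose and 1 fell, with a median log2 fold change of 0.59. *Nrg1*, a neuregulin that binds ErbB3 and ErbB4, was at 0.0423, 0.0654, 0.0377 and 0.0187 FPKM in controls and at 0.767, 1.29, 1.11 and 1.53 in *Usp39*-HKO livers (log2 fold change 4.57, SE 0.30, edgeR adjusted p 2.92e-05). It passed the filter through the knockout livers alone, where no value came near a control. The 11 and the 2 genes that rose both include it, so each count holds 1 gene let in this way. *Btc*, the ErbB ligand betacellulin, was at 0.771, 0.692, 1.13 and 1.15 FPKM in controls and at 1.64, 2.54, 3.29 and 3.43 in *Usp39*-HKO livers (1.29, SE 0.24, adjusted p 0.00426). *Mst1*, an HGF-like protein that activates the MET relative RON, fell from 66.1 ± 3.83 to 46.9 ± 7.13 FPKM (-0.72, SE 0.13, adjusted p 0.00378). *Egf*, *Epgn*, *Nrg2*, *Erbb4* and *Mst1r* were under the filter and *Nrg3* had no count in any liver. *Ereg*, the ligand epiregulin, was also under it, with 0.141 to 0.220 FPKM in controls against 0.374 to 0.660 in *Usp39*-HKO livers, and is named because its groups did not overlap. Among all genes tested, 23.9% were higher without overlap in FPKM.

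The list of genes that cut or prepare HGF held proteases and *Plaur*, a receptor, and 7 of 8 were tested. *Plaur* rose and 3 proteases fell, so 57.1% were called against 22.5% of all genes tested. The median log2 fold change was -0.48. *Klkb1*, plasma prekallikrein, was at 35.7, 33.9, 33.8 and 29.8 FPKM in controls and at 10.7, 16.8, 15.6 and 12.1 in *Usp39*-HKO livers (-1.51, SE 0.15, edgeR adjusted p 0.000304), and 43.2% of its exon bases are shared with *Gm45753* on the same strand. *Plg*, plasminogen, was at 502, 540, 546 and 554 FPKM in controls and at 423, 279, 290 and 271 in *Usp39*-HKO livers (-0.98, SE 0.18, adjusted p 0.00401). Both were lower in every knockout liver than in any control, as were 4.81% of all genes tested in FPKM. *F2*, prothrombin, fell by 0.64 on the log2 scale with overlapping groups (SE 0.19, adjusted p 0.0296) and kept the call in 5 of 15 alternatives, losing it without A474 and without A475 among others. *Plaur*, the urokinase receptor, rose from 0.457 ± 0.140 to 1.66 ± 0.846 FPKM (1.58, SE 0.35, adjusted p 0.00896). The proteases that did not pass were *Hpn*, *F12* and *Plau*. The protease gene under the filter was at 0.0762 to 0.225 FPKM in controls and higher, at 0.323 to 1.42, in *Usp39*-HKO livers, without overlap. In FPKM, 23.9% of all genes tested were higher without overlap. Of the inhibitors of HGF activation, *Spint2*, a membrane-bound inhibitor of these proteases, had a log2 fold change of 0.25 (SE 0.13, edgeR adjusted p 0.196) with overlapping groups and did not pass the test.

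Of 6 genes that release EGF receptor ligands from the cell surface, 5 were tested and 1 rose. *Rhbdf1* encodes iRhom1, a cofactor of the ligand sheddase ADAM17, and had 1.86, 2.99, 2.27 and 2.54 FPKM in controls and 6.55, 4.95, 6.10 and 7.18 in *Usp39*-HKO livers (1.12, SE 0.16, edgeR adjusted p 0.0012). The knockout livers were all above the controls, as in 23.9% of all genes tested. The sheddase itself, *Adam17*, had a log2 fold change of 0.12 (SE 0.15, adjusted p 0.592).

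Of 22 adaptors and relays of the receptors, all tested, none rose and 2 fell. That is 9.09% called, under the 22.5% of all genes tested. The median log2 fold change was -0.09 and became 0.15 without TMM factors. *Araf*, a RAF kinase, fell from 17.1 ± 0.688 to 13.2 ± 0.923 FPKM (-0.61, SE 0.09, edgeR adjusted p 0.00148) and kept the call in 15 of 15 alternatives. *Akt2*, a kinase downstream of PI3K, had a log2 fold change of -0.33 (SE 0.09, adjusted p 0.0265) and kept it in 6 of 15, again not without A474 or A475. Of 12 receptor inhibitors and turnover genes, all tested, 1 fell (8.33% called, against 22.5% of all genes tested), and the median was 0.04. It was *Lrig1*, a membrane protein that promotes loss of ErbB receptors (-0.48, SE 0.11, edgeR adjusted p 0.0123, not past the test without TMM factors).

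Of 16 MAPK output and feedback genes, 13 were tested, 7 rose and none fell, against 10.9% and 11.6% of all genes tested, with a median log2 fold change of 0.74 against -0.0015 for all genes. *Ccnd1*, the G1 cyclin D1, was at 4.42, 8.40, 1.73 and 2.28 FPKM in controls and at 13.2, 28.2, 29.6 and 37.8 in *Usp39*-HKO livers (adjusted p 0.00321), and 23.4% of its exon bases lie opposite another gene. *Dusp5*, a nuclear ERK phosphatase, was at 1.98, 1.39, 2.12 and 1.28 FPKM in controls and at 2.91, 4.88, 7.04 and 11.3 in *Usp39*-HKO livers (1.69, SE 0.34, edgeR adjusted p 0.00586), with 22.1% of exon bases opposite another gene. In both genes A469 was the lowest knockout liver and A474 the highest, as in *Hgf*. *Etv5*, an ETS transcription factor, rose from 1.21 ± 0.208 to 3.02 ± 1.33 FPKM (1.06, SE 0.26, adjusted p 0.0155). The other genes that rose were the ERK pathway inhibitors *Spry2*, *Spred1* and *Spry1* and the immediate-early factor *Egr1*, with log2 fold changes of 0.96, 0.83, 0.77 and 0.74. The strand setting of the counting is not given in the sources used here, so reads from genes on opposite strands may be mixed. *Spry2* lost the threshold without *Usp39*-HKO A474 and without control A468, A473 or A475, *Egr1* without A474, A473 or A475, and *Etv5* without A473. The other 4 genes kept it in every alternative that tested them.

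**Figure D5:**
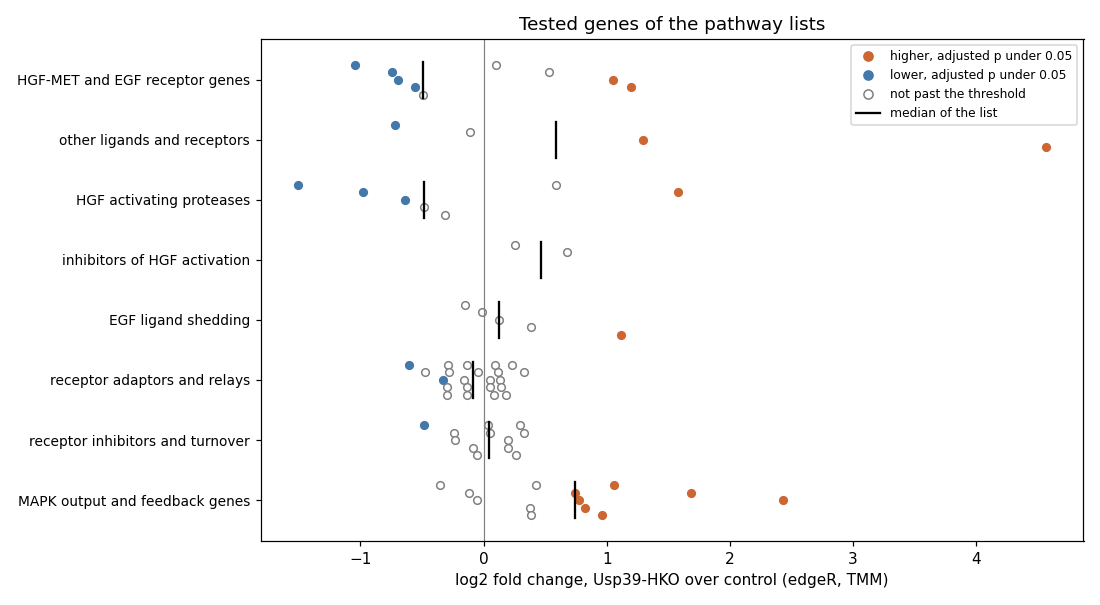
Log2 fold change (*Usp39*-HKO over control, edgeR) of each tested gene in the main list and the 7 lists around it, with genes at an adjusted p under 0.05 in orange (higher) or blue (lower), other genes as open circles, and list medians as black lines. The MAPK list has a median of 0.74, and the list of adaptors and relays has a median of -0.09.

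The genes whose pattern over the 8 livers was most like that of *Egfr*, among 11067 genes with a mean of at least 1 FPKM, were *C8a*, *Nat8f2* and *Apol9b*. The root mean square differences of centred log2(FPKM + 1) were 0.193, 0.197 and 0.200, where *Egfr* itself varied by 0.594 around its mean. *C8a*, a complement component, had 171, 145, 144 and 147 FPKM in controls and 91.2, 94.0, 124 and 54.9 in *Usp39*-HKO livers, with A471 highest and A474 lowest of the knockout livers as in *Egfr*. For *Met* the nearest were *Gm11266*, *Pdxdc1* and *Slc23a1*, at 0.0768, 0.0875 and 0.0901, where *Met* varied by 0.332. *Slc23a1*, a vitamin C transporter, had 18.5, 15.0, 21.3 and 20.7 FPKM in controls and 10.3, 16.4, 10.2 and 13.3 in *Usp39*-HKO livers, with A470 above control A472 as in *Met*. These likenesses were picked from all genes on the same 8 livers and are descriptions.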

How the data were processed

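Liver RNA of 4 control and 4 *Usp39*-HKO mice was sequenced, 1 library per mouse. Per the processing notes of the labels and the study's methods, the authors trimmed reads with Trim Galore 0.6.1, checked them with FastQC 0.11.9, aligned them to mm10 (HISAT2) and used featureCounts to count per gene. The annotation release, the strand setting and the treatment of multimapping reads are not given in the sources used here. The authors deposited raw counts per gene and mouse, together with FPKM, the count scaled to exon length and to the total of the mouse, which recomputation from the counts gave back. The deposited columns of the authors' own DESeq2 comparison (mean, fold change, error, statistic and p-values) were not used. Of 55699 table entries, 314 repeated an identifier under another symbol and were read once.

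Counts were tested with edgeR 4.0.16 (R 4.3.3; quasi-likelihood, TMM, no covariates, common biological coefficient of variation 0.179), for genes at or above 0.5 FPKM in at least 4 of 8 mice. A standard error is the size of the log2 fold change divided by the square root of F. The tests are two-sided, and the fit was tested on simulated data. DESeq2 1.42.0 and limma 3.58.1 on log2(FPKM + 1) and log2(FPKM + 0.1) were alternatives, as were median-ratio factors, no TMM factors, no filter, a mean of at least 5 FPKM and leaving out each mouse. Coordinates, exon overlaps and gene types came from GENCODE vM21 (GRCm38), which held 99.6% of the identifiers. The 10 genes were those whose symbol is in the list. All of them are named, with, from each list around them, up to 3 called genes in each direction with the largest fold changes and the 3 genes nearest in pattern to *Egfr* and to *Met*. The genes, lists and tests were chosen with earlier results of these data known. Replicates are separate mice. Sequences of *Hbegf* were not used here. One gene of the lists is not reported here by name.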

Additional observations from a re-analysis of the deposited data

Results flagged for a closer look

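One value stood apart from the others of its group. *Hgfac* was at 60.6 FPKM in *Usp39*-HKO mouse A469 and at 33.7 to 37.2 in the other 3 *Usp39*-HKO mice, a gap of 0.872 of the group's range, above Dixon's 95% critical value for 4 samples. It was 1 of 20 groups of 4 values examined, and chance alone would mark about 1 in 20. The same liver was nearest to the controls in *Hgf* and highest of all 8 in *Errfi1*, at 582 FPKM, though not apart from its group by that measure.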

How the results depend on the processing

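The direction of every tested gene of the list of 10 was kept in 133 of 133 alternative values. The call at an adjusted p of 0.05 was kept by *Hgf* in 15 of 15 alternatives, *Egfr* in 14 of 15, *Met* in 13 of 15, *Hbegf* in 11 of 14, *Erbb3* in 7 of 15 and *Hgfac* in 4 of 15, while *Errfi1* gained it in 2 of 15, *Erbb2* in 1 of 14 and *Tgfa* in 0 of 15. The number called, 6 of 9, was 3 with limma at either pseudocount, 3 of 7 with a mean of at least 5 FPKM, and 2 to 6 when 1 mouse was left out, with 2 without control A473, 3 without *Usp39*-HKO A474 and 4 without control A475. Of all genes 3225 were called, against 1595 of 6672 with the stricter filter, where fewer genes were tested, and 1917 to 3321 when 1 mouse was left out (1917 without *Usp39*-HKO A474, 1917 without control A473 and 2038 without control A475). Of those called, 48.4% were higher, against 83.3% without TMM factors and 82.6% to 83.0% with limma. Of the 65 genes of the lists around them 18 were called (11 higher, 7 lower), against 29 without TMM factors (25 and 4), 28 with limma on log2(FPKM + 1) (24 and 4), 11 of 45 with the stricter filter, and 13 to 24 when 1 mouse was left out. Of the 18, 12 were called in every alternative that tested them and 0 changed direction. Beyond the smaller sets of genes or mice, the cause was not tested. No paired analysis was possible because the labels give no replicate number that controls and *Usp39*-HKO mice share. Counts under about 30 per liver limit *Areg*, *Hbegf* and *Erbb2* in controls.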

Other observations

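Of the ligand genes for the EGF receptor family that were tested (*Hbegf*, *Tgfa*, *Btc*, *Nrg1* and *Nrg4*), *Hbegf*, *Btc* and *Nrg1* rose. Of all genes tested 10.9% were called higher, and *Nrg1* passed the filter through knockout livers alone. *Areg* and *Ereg* lay higher in every *Usp39*-HKO liver than in any control, as did 23.9% of all genes tested, although both were under the expression filter. Also under it, *Egf*, *Epgn* and *Nrg2* overlapped between genotypes, and *Nrg3* had no count. *Tgfa* and *Nrg4* had log2 fold changes of 0.10 and -0.11. *Egfr* and *Erbb3* fell and *Erbb2* did not pass the test. Setting ligands beside receptors in this way was chosen after the values were seen, and no test was run on it.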
